A study of Homo sapiens with 6 samples.

Results

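The 9 sites described here lie in 5 genes that connect the cell surface to the actin cytoskeleton and to transcription: ITGB5, BCAR1, PPP1R12C, DIAPH1 and JUN. They were taken by position from the deposited site tables of an ac4C-seq experiment, 7 of the 1352 sites listed for control cells and 2 of the 1001 sites listed for NAT10 knockdown, so 9 of 2353 in all. The 5 genes were singled out by the study partly on these samples, and being listed is therefore not an independent result about them. None of the 9 sites is listed in both tables, as holds for nearly every listed site, since the 1352 and 1001 sites have only 1 in common. No site of these genes therefore has a level in both groups, and a site missing from a table has no known level there.

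The cells were PANC-1, an established human pancreatic cancer line, in 2 groups of 3 samples each, control and NAT10 knockdown. NAT10 is the enzyme that acetylates cytidine in RNA to N4-acetylcytidine (ac4C). The sample titles name the groups shControl and shNAT10, while the text of the protocol names both siRNA and shRNA as the means of silencing. Captured mRNA of every sample was split into a library reduced with 100 mM sodium borohydride (NaBH4) at 55 °C for 30 min, called treated below, and an untreated library. Nothing says that the samples came from separate cultures, so the spread between them may be technical, and the tables hold no expression levels with which to check the line or the amount of NAT10 RNA.

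Integrins are pairs of an alpha and a beta chain that bind the extracellular matrix, and ITGB5 is a beta chain that pairs with the alpha V chain to bind vitronectin. Bound integrins gather adaptor proteins and kinases into focal adhesions, where BCAR1 (p130Cas) is a docking protein phosphorylated by Src family kinases. The actin cytoskeleton that focal adhesions anchor is shaped by formins such as DIAPH1, which nucleates and elongates unbranched filaments, and by myosin phosphatase, for which PPP1R12C is a targeting subunit. JUN, a subunit of the AP-1 transcription factor, lies downstream of the kinase cascades. NaBH4 reduces ac4C to a base that is misread during reverse transcription, so that an acetylated cytidine appears as T in part of the treated reads. Only 394 of the 1352 control sites and 292 of the 1001 knockdown sites were cytidines, and the other listed bases cannot carry ac4C. The share of reads with T at a cytidine is called the C-to-T level here, and the share of reads that differ from the reference base in any way is called the mismatch level.

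All 5 genes are transcribed from the minus strand, all 9 sites were listed on that strand, and each site fell inside the span of no other annotated gene. The ITGB5 cytidine was at chr3:124796414 (GRCh38), 105004 bases from the 5′ end of the gene. Within BCAR1, a cytidine at chr16:75242775 and a guanosine at chr16:75233889 were listed for control cells, and a thymidine at chr16:75233883 for NAT10 knockdown. The PPP1R12C cytidine was at chr19:55093182, near the 3′ end of the gene. DIAPH1 had a cytidine at chr5:141579095 in control cells and a different cytidine at chr5:141528929 in NAT10 knockdown, 50166 bases further along the gene. JUN had a cytidine at chr1:58782772 and an adenosine at chr1:58782923, 151 bases apart, both in control cells. Exon, intron and untranslated region were not analysed here.

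The sequence around the ITGB5 cytidine is shown because this site is the deepest of the cytidines read mainly as T in these genes, and the only member whose surroundings lie in the sequences used here. It was read from RefSeq (GRCh38.p14), minus strand, chr3:124796374-124796454, and the capital marks the listed cytidine.
ITGB5 cytidine: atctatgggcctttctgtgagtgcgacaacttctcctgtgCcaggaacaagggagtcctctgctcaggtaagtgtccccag
The cytidine follows a G and precedes a C, so it is not the middle base of CCG, the triplet in which ac4C is known from ribosomal RNA. No C lay 3 bases before or after it, so the pattern CNNC was not met on either side. The letters GTAAGT, which match the start of many introns, begin 27 bases after it. Sequence was at hand only inside RefSeq promoter windows, where 35 of the 394 control cytidines had a known surrounding. Of these 35, 3 (8.57%) were the middle of CCG, beside 10.9% of 824 unlisted cytidines within 50 bases of them on the same strand. The pattern CNNC was met at 17 of the 35 (48.6%), beside 60.7% of those neighbours. Neither pattern was thus more frequent at these 35 sites than around them, and the other listed cytidines were not examined for either.

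At the ITGB5 cytidine, T was read in 6 of 501 treated reads in replicate 1, 3 of 496 in replicate 2 and 3 of 458 in replicate 3 of control cells. The C-to-T level was 1.20%, 0.605% and 0.655%, and its mean was 0.819% ± 0.329 (SD, n = 3). The only other mismatched reads were 2 with A in replicate 2, so 85.7% of the mismatched reads carried T. The untreated libraries held 270, 315 and 352 reads and no mismatch, and 0 of 937 reads allows a share of up to 0.320%. Per library the limits were 1.11%, 0.952% and 0.852%. No listed site of either table had a mismatched untreated read, so at every site described here the listing itself fixed that treated libraries exceed untreated ones. The 95% Wilson intervals of the treated libraries ran from 0.550% to 2.59%, from 0.206% to 1.76% and from 0.223% to 1.91%, so all 3 overlapped and the levels could not be ordered. Such intervals and limits cover counting error only.

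BCAR1 had the highest C-to-T level among the control cytidines of these genes. T was read in 5 of 382, 7 of 383 and 2 of 400 treated reads of replicates 1, 2 and 3, a mean of 1.21% ± 0.669 (SD, n = 3). A single read with G, in replicate 3, was the only other mismatch. The untreated libraries had no mismatch in 374, 419 and 355 reads, which allows a share of up to 0.261% over all 1148. Replicate 3, at 0.5%, lay lowest, and its interval of 0.137% to 1.80% overlapped that of replicate 2, 0.888% to 3.72%. The levels of the ITGB5 and BCAR1 cytidines overlapped between the sites, as the lowest BCAR1 library was below every ITGB5 library.

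The second control site in BCAR1 was a guanosine, which cannot carry ac4C. Other bases were read in 5 of 292, 5 of 290 and 4 of 270 treated reads, a mismatch level of 1.64% ± 0.137 (SD, n = 3). A was the most frequent of them, with 3, 4 and 2 reads, and T and C made up the rest. Over all 218 control guanosines, A made up 45.4% of the mismatched reads and T 41.6%. The untreated libraries, with 143, 199 and 170 reads, had no mismatch, which allows up to 0.586% over all 512. Its mismatch level was above that of the BCAR1 cytidine in replicates 1 and 3 and below it in replicate 2.

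In NAT10 knockdown the listed BCAR1 site was a thymidine, 6 bases from that guanosine. Mismatches were 4 of 156, 3 of 157 and 4 of 120 treated reads, a mismatch level of 2.60% ± 0.712 (SD, n = 3). C was read 3 times in replicate 1 and 4 times in replicate 3 but not in replicate 2, whose 3 mismatched reads were all A. The untreated libraries held 88, 93 and 93 reads with no mismatch, which allows up to 1.09% over all 274. No cytidine of BCAR1 was listed in NAT10 knockdown.

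**Figure D1:**
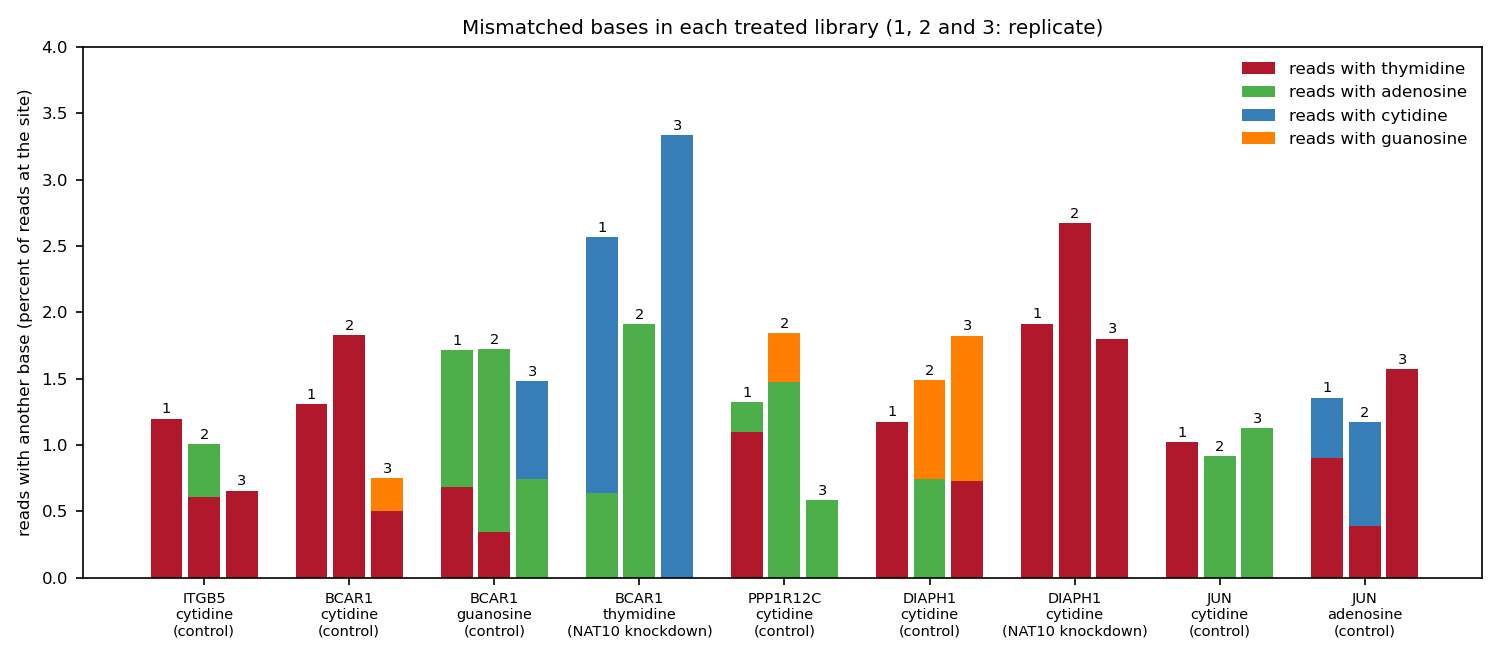
Percent of reads with a base other than the reference (vertical axis) in each of the 3 treated libraries of the 9 sites, each bar split by the base read and numbered by replicate. T fills every bar of the DIAPH1 cytidine of NAT10 knockdown and most of the ITGB5 and BCAR1 cytidines, while the PPP1R12C, JUN and control DIAPH1 cytidines change base between replicates.

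The PPP1R12C cytidine was the deepest of the 9 sites, with 1510 treated reads, and its mismatched base differed between libraries. In replicate 1, 5 of the 6 mismatched reads were T and 1 was A. In replicate 2 there were 10 mismatched reads, 8 with A and 2 with G, and in replicate 3 there were 3, all with A. The C-to-T level was thus 1.10% in replicate 1 and 0 in the others, where 0 of 543 and 0 of 513 reads allow up to 0.552% and 0.585%. Its mean was 0.367% ± 0.636 (SD, n = 3), and without replicate 1 it was 0. The mismatch level was 1.25% ± 0.632 (SD, n = 3), and 0 of 858 untreated reads were mismatched, which allows up to 0.350%. That limit lay just below the mean C-to-T level but above the C-to-T level of the pooled treated reads, 0.331%. A C-to-T excess over the untreated libraries was thus not clearly detectable.

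DIAPH1 differed in this respect between its control and its knockdown site. At the control cytidine, T was read in 3 of 255, 0 of 269 and 2 of 274 treated reads, so the C-to-T level averaged 0.635% ± 0.594 (SD, n = 3). Without replicate 1 it was 0.365% and without replicate 2 it was 0.953%. Replicate 2 had 2 reads with A and 2 with G, and replicate 3 had 3 with G beside its 2 with T. In all, 5 of its 12 mismatched reads carried T (41.7%), as many as carried G. The untreated libraries had 275, 313 and 333 reads and no mismatch, which allows up to 0.326% over all 921.

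The DIAPH1 cytidine of NAT10 knockdown was the only one of the 6 cytidines where every mismatched read was T. T was read in 4 of 209, 5 of 187 and 4 of 222 treated reads, so the C-to-T level averaged 2.13% ± 0.474 (SD, n = 3). The levels were 1.91%, 2.67% and 1.80%, and the 0 of 543 untreated reads allow up to 0.552% over all 3 libraries and up to 2.03% in replicate 1 alone. This level was above that of 227 of the 292 cytidines listed for NAT10 knockdown (77.7%). A cytidine with T as its only mismatched base was not rare in that table, where 57 of 292 (19.5%) were of this kind, nor in the control table, where 71 of 394 (18.0%) were. The highest C-to-T level among the 6 cytidines was thus read in cells with silenced NAT10, at a position with no listed value in control cells. This cytidine was also the shallowest of the 6, with 618 treated reads. No listed site had fewer than 3 mismatched reads in any treated library, and 3 reads are 1.35% to 1.60% of the reads at this site. The difference between the DIAPH1 sites was not tested, as they are different positions from tables listed separately.

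At the JUN cytidine every treated library had exactly 3 mismatched reads. All 3 were T in replicate 1, of 294 reads, and all 3 were A in replicate 2, of 328 reads, and in replicate 3, of 266 reads. The C-to-T level was therefore 1.02% in replicate 1 and 0 in replicates 2 and 3, which allow up to 0.915% and 1.13%, with a mean of 0.340% ± 0.589 (SD, n = 3). The untreated limit of 0.610%, from 0 of 492 reads, lay above this mean, so a C-to-T excess over the untreated libraries was not detectable at this depth. The mismatch level was 1.02% ± 0.107 (SD, n = 3). Without replicate 1 the C-to-T level was 0.

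The JUN adenosine also had 3 mismatched reads in every treated library, of 221, 256 and 191 reads, a mismatch level of 1.37% ± 0.200 (SD, n = 3). They were 2 T and 1 C in replicate 1, 1 T and 2 C in replicate 2 and 3 T in replicate 3. No mismatch was seen in 385 untreated reads, which allows up to 0.779%. Sites with exactly 3 mismatched reads in every treated library were 72 of 1352 in the control table (5.33%), and both JUN sites were among them.

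**Figure D2:**
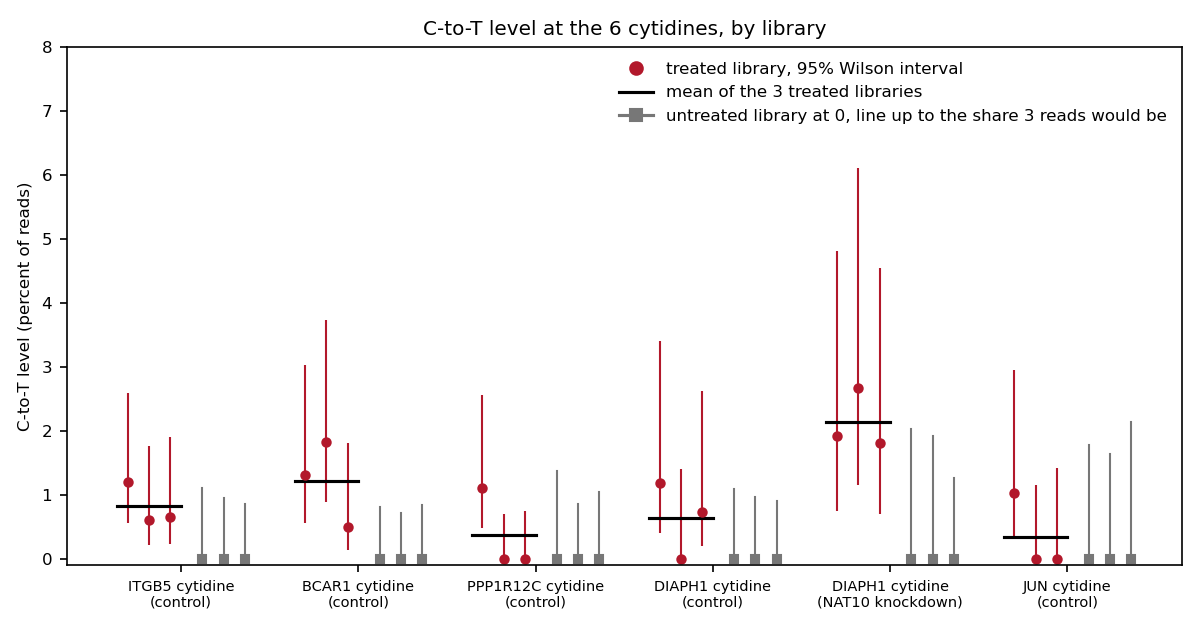
C-to-T level in percent of reads (vertical axis) at the 6 cytidines. Red points are treated libraries with 95% Wilson intervals, black lines are means of 3, and grey squares are untreated libraries, all at 0, each with a line up to the share that 3 reads would be. T was read in all 3 treated libraries at the ITGB5 and BCAR1 cytidines and the DIAPH1 cytidine of NAT10 knockdown, and in replicate 1 only at the PPP1R12C and JUN cytidines.

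T was thus read in all 3 treated libraries at 3 of the 6 cytidines, and in every library with at least 3 reads at 2 of them, ITGB5 and the DIAPH1 cytidine of NAT10 knockdown. Of all control cytidines, 215 of 394 (54.6%) had T in every treated library and 113 (28.7%) had at least 3 such reads in each. The 5 control cytidines shared a pattern over replicates that was noticed after the values were seen and was not tested. In replicate 1, 22 of their 23 mismatched reads were T (95.7%), against 10 of 29 (34.5%) in replicate 2 and 7 of 17 (41.2%) in replicate 3. T led at all 5 sites in replicate 1 and at 2 of 5, ITGB5 and BCAR1, in each of the others. Over the other 389 control cytidines the share of T among mismatched reads was 53.3%, 57.1% and 54.6% in replicates 1, 2 and 3, so the T-rich replicate of these genes did not stand apart there. T in only 1 of the 3 treated libraries, as at PPP1R12C and JUN, was seen at 53 of the 394 control cytidines (13.5%), of which 17 had it in replicate 1.

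Whether the treated libraries differed from each other at a site was asked with Fisher's exact test, two-sided, with Benjamini-Hochberg adjustment over every site of the table. For the mismatch level, 0 of the 7 control members and 0 of the 2 knockdown members passed an adjusted p of 0.05, where 0% of all control sites (0 of 1352) and 0.0999% of all knockdown sites (1 of 1001) did. At an unadjusted p under 0.05, 29 control sites passed and no member was among them. Every listed site had at least 3 mismatched reads in every treated library and a median mismatch level of at least 1%. Sites with a low library are thus absent, which evens the levels of those listed. For the identity of the mismatched base, 0 of 7 control members and 0 of 2 knockdown members passed, where 1.85% of all control sites (25 of 1352) and 4.5% of all knockdown sites (45 of 1001) did. The PPP1R12C cytidine came nearest, with p = 0.00134 and adjusted p = 0.0567 by the exact test. The JUN cytidine had p = 0.0357 (adjusted p = 0.228) and the BCAR1 thymidine p = 0.0303 (adjusted p = 0.169) by the same exact test. Such values were common, as 237 control sites (17.5%) and 216 knockdown sites (21.6%) had an unadjusted p under 0.05 for the base. The remaining 6 members had an unadjusted exact p of 0.0729 or higher, with 9 to 15 mismatched reads each, few for a test of bases. The JUN cytidine, with all its T reads in 1 library, had the lowest p that its counts allowed, and could not pass. Nor could the DIAPH1 cytidine of NAT10 knockdown, whose mismatched reads were all T, so at both the counts set the outcome in advance.

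All 7 control members had a median mismatch level below the median of the control table, 2.11%. The ITGB5 cytidine, at 1.01%, was above only 3 of the 1352 sites, and the JUN cytidine, at 1.02%, above 15. The BCAR1 guanosine was the highest of the 7 at 1.71%, above 37.8% of the sites. All 7 also had more treated reads than the table's median site (588), and 1267 sites (93.7%) had fewer than the 1455 of ITGB5. Level and depth were linked throughout the table, since 602 of the 673 sites deeper than the median (89.5%) lay below the median level. For NAT10 knockdown it was 462 of 500 (92.4%). By C-to-T level alone the ITGB5 cytidine was above 150 of 394 control cytidines (38.1%) and the BCAR1 cytidine above 228 (57.9%). In 7 of the 9 members at least 1 treated library had only 3 mismatched reads, as in 70.6% of all control sites and 67.4% of all knockdown sites.

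**Figure D3:**
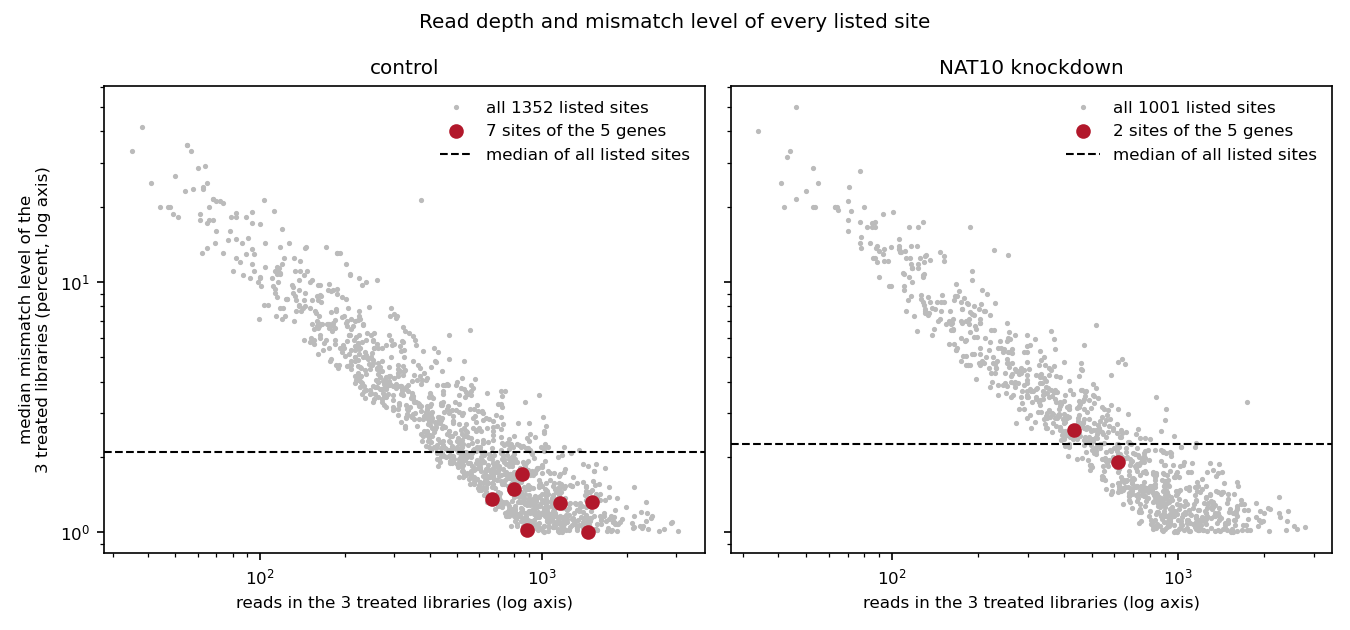
Median mismatch level of the 3 treated libraries (vertical log axis, percent) against the reads in those libraries (horizontal log axis) for every listed site of each group, with the members in red and the median level dashed. Deeper sites have lower levels, and the 7 control members lie at the deep, low end of the control table, below its median of 2.11%.

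The BCAR1 guanosine and thymidine lie 6 bases apart, so reads over this stretch were counted in both groups. The treated libraries had 292, 290 and 270 reads in control cells and 156, 157 and 120 in NAT10 knockdown. The untreated libraries had 143, 199 and 170 in control cells and 88, 93 and 93 in NAT10 knockdown. The groups did not overlap in either kind of library. Nor did the reads over all listed sites, which in treated libraries were 295737 to 305063 in control cells and 214580 to 223988 in NAT10 knockdown. How often other stretches have such a gap between the groups, as listed or scaled, was not counted. Per 100000 reads over all listed sites of a library, the treated values were 94.1 ± 5.15 in control cells and 65.9 ± 8.78 in NAT10 knockdown (SD, n = 3 each), and the untreated values 75.7 ± 9.02 and 49.4 ± 4.37, again without overlap. The tables list different sites, and total sequencing depth is unknown, so these scales do not equal an expression level. Whether the groups differed in BCAR1 transcript is thus not known. Bulk samples could not tell the share of cells with a transcript from its amount per cell either. Treated reads over untreated reads gave a ratio of 1.70 ± 0.307 in control cells and 1.58 ± 0.258 in NAT10 knockdown. Its log2 value differed by -0.097 (NAT10 knockdown minus control), with an exact permutation p of 0.7, two-sided, where the smallest possible with 3 against 3 is 0.1. This difference was smaller than the spread between samples, and its sign turned when each library was scaled by its reads over all listed sites (0.0935).

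**Figure D4:**
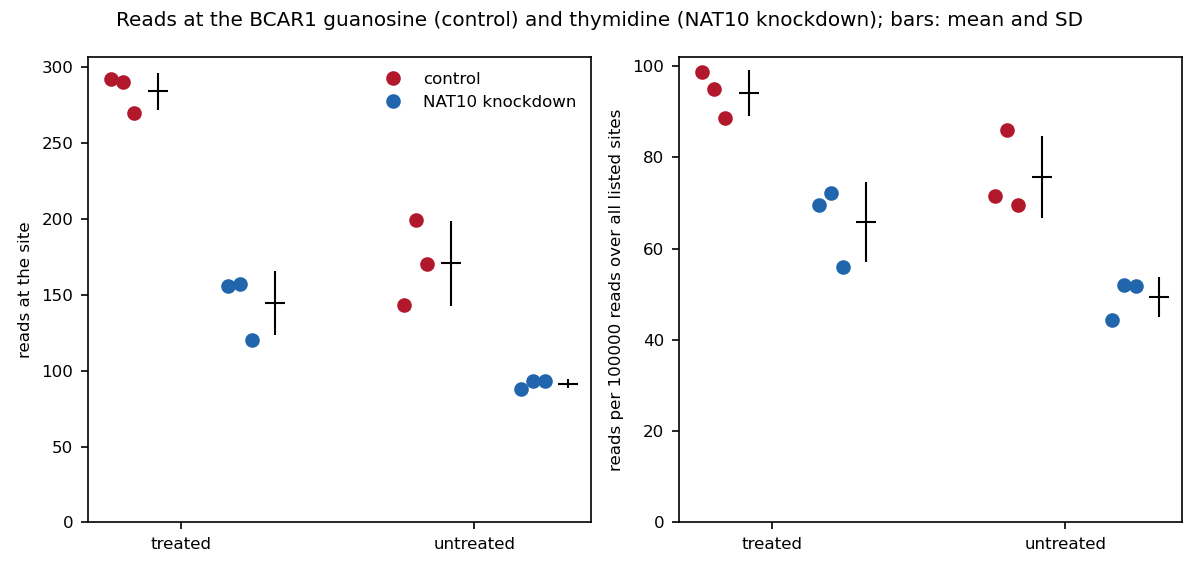
Reads at the BCAR1 guanosine of control cells and the BCAR1 thymidine of NAT10 knockdown, 6 bases apart, as listed (left) and per 100000 reads over all listed sites of the library (right). Points are libraries, and black marks are means with SD (n = 3); within the treated libraries, and within the untreated ones, the control points lie above those of NAT10 knockdown in each panel.

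The listed sites most like each member were found among sites of the same table and reference base with 0.5 to 2 times its treated reads, by the summed difference of the percent of reads with each other base over the 3 treated libraries. For the ITGB5 cytidine they were in PLIN3 (0.909 percentage points in sum), INHBB (0.983) and CDC37 (1.11), where the median of the 168 candidates was 3.10. For the BCAR1 cytidine it was a site in RBM5 (0.654 against a median of 3.94) and for the DIAPH1 cytidine of NAT10 knockdown a site in MCM2 (0.586 against 6.28). The site most like the PPP1R12C cytidine was the JUN cytidine (1.77), of 162 candidates with a median of 5.57. For the BCAR1 guanosine it was a site in JPT2 (2.04 against 6.15), for the BCAR1 thymidine a site in PIGK (4.44 against 12.0) and for the JUN adenosine a site in TMEM259 (1.48 against 5.77). The sites most like the control DIAPH1 cytidine, at chr22:50508307 (1.27 against 5.68), and the JUN cytidine, at chr1:116399023 (1.53 against 5.97), were given no gene name here. The site in MCM2 had T as its only mismatched base, with 4, 4 and 5 reads.

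A list of 138 genes of integrin, focal adhesion and actin signalling gives the setting of the 5 genes, of which it holds all. On the chromosomes that both tables cover lie 116 of them, and 24 (20.7%) had at least 1 control site on their strand, beside 5.53% of all 16695 protein-coding genes there. Without the 5 genes it was 19 of 111 (17.1%). In NAT10 knockdown it was 11 of 116 (9.48%), beside 4.2% of all genes, and 9 of 111 (8.11%) without the 5. Expression, which these tables do not measure, was not taken into account. The list was also drawn up with earlier results of these data known, so its shares are not an independent result. Among integrin subunits 2 of 14 had a control site, and among matrix ligands 3 of 17. Among adaptors and kinases it was 6 of 27, and among downstream kinases and transcription factors 5 of 25. ITGB5, BCAR1 and JUN are counted in these.

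Of these genes, 10 had a control cytidine site and 3 had one in NAT10 knockdown, and DIAPH1 alone had one in both. Without the 5 genes, which were chosen for such sites, it was 5 and 2 of 111, beside 293 and 207 of all 16695 protein-coding genes. In LAMA5, a laminin chain of basement membranes, the C-to-T level was 2.46% ± 0.580 (SD, n = 3) over 199 treated reads. A and G were also read there, and its mismatch level was 5.09%. In ITGA5, the alpha chain of the fibronectin receptor, it was 1.95% ± 1.76 (SD, n = 3), with no T in 1 library. ARPC2, a subunit of the Arp2/3 complex that branches actin filaments, had 0.773% ± 0.682 (SD, n = 3) and also lacked T in 1 library. PXN, the focal adhesion scaffold paxillin, had 0.772% ± 0.594 (SD, n = 3) with T in each. In its replicates 2 and 3, however, G was read 3 times and T only 1 time. LAMB2, another laminin chain, had no T at its cytidine at all. The other 5 were the members, and BCAR1 and ITGB5 came directly after ITGA5 in the order of levels, with differences from ITGA5 before them and ARPC2 after them that were within the spread of the libraries.

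In NAT10 knockdown the cytidine of LIMS1 (PINCH), an adaptor that binds integrin-linked kinase, was read as T in 2.73% ± 0.913 of reads (SD, n = 3), and that of EZR (ezrin), which ties actin to the plasma membrane, in 1.48% ± 0.737 (SD, n = 3). At both, as at the DIAPH1 cytidine between them, every mismatched read was T. With sites of any base counted, 5 genes of the list appeared in both tables, BCAR1, DIAPH1, EZR, IQGAP1 and AKT1, each at different positions, beside 173 of all 16695 protein-coding genes, and 3 of 111 without the 5 genes.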

How the data were processed

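The authors captured mRNA, treated it with NaBH4, prepared stranded libraries with molecular identifiers, removed duplicates and called sites on the 3 replicates together. The submitters' processing notes name fastp 0.23.1, STAR 2.7.6a, featureCounts and GRCh38. The deposited counts give the reads with each base per library, and each deposited fraction is the mismatched share of a library's reads. The authors' p-value, summary difference and 12 letter-code columns were not used. The control table heads its columns WT. For 100% of sites in either list, counts and fractions followed from the base counts. Inside RefSeq promoter windows, 75 of 75 control and 28 of 28 knockdown sites had the GRCh38.p14 base.

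Libraries held 295737 to 305063 (control, treated), 199984 to 244199 (control, untreated), 214580 to 223988 (NAT10 knockdown, treated) and 178646 to 198453 reads (NAT10 knockdown, untreated) over listed sites. Levels are means ± SD over replicates with 95% Wilson intervals per library. A count of 0 allows 3 reads. Fisher's exact test ran in R 4.3.3, all else in Python 3.11.15 with scipy 1.17.1. On simulated reads with 200 sites changed strongly in 1 library, the test called 76.5% of them for the control level and 72.5% for the control base. The simulated sites were of any depth and did not pass through the listing filter, so these shares do not hold for a single member. Named were all sites of the 5 genes, their nearest sites by the likeness measure, and list genes with a cytidine site, at most 10 per table by level. Members and lists were chosen with earlier results of these data known. The count of 1 further group of the gene list is not reported here.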

Additional observations from a re-analysis of the deposited data

How the results depend on the processing

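Over 14 results and 71 alternatives, 51 kept their direction and moved by less than the SD or, for counts and tests, stayed on the same side of the threshold or within 1.5 times. Counting any other base in place of T moved the level to 1.25% at PPP1R12C, 1.5% at the control DIAPH1 cytidine and 1.02% at the JUN cytidine. Counting only the most frequent other base moved it to 1.05% at the BCAR1 guanosine, 1.75% at the BCAR1 thymidine and 0.955% at the JUN adenosine. Leaving out a replicate moved no level by more than its SD, yet the C-to-T levels at PPP1R12C and JUN ranged from 0 (without replicate 1) to 0.551% and 0.510%, and that at the control DIAPH1 cytidine from 0.365% (without replicate 1) to 0.953%. With at least 5 mismatched reads in every treated library, 16 of 116 control and 18 of 78 knockdown sites differed in base. With a replicate left out, 0 to 0 sites did, of 25 and 45, and the 1 knockdown site that differed in level was lost (0 to 0), with 90 to 119 control and 91 to 97 knockdown sites at an unadjusted p under 0.05 for the base. For the BCAR1 log2 read ratio, scaling by all listed reads turned the difference to 0.0935 and leaving out a sample gave -0.199 to 0.0444, above 0 without control replicate 1 (0.0444) or without NAT10 knockdown replicate 3 (0.0438). With the replicate block it was -0.097 (exact paired sign-flip p = 0.75, smallest possible 0.25). The labels do not say that equal numbers share a culture, and with 1 site in both tables the pairing could not be checked.

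Each mismatch level rests on 9 to 19 mismatched reads and the C-to-T levels on 3 (JUN) to 14 (BCAR1) reads with T, and the listing fixed that treated libraries exceed untreated ones, so that difference was not tested.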
